A study of Homo sapiens with 12 samples.

Results

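The genes described here are 37 members of the human DNA repair and damage signalling machinery, chosen by symbol from a list that no measured value entered as a criterion, although it was drawn up with earlier results of these data known. All 37 were present among the 24180 gene symbols of the count tables, and all 37 were among the 15407 genes with enough counts to test. They were measured by RNA-seq in 143B cells, an established human osteosarcoma line derived from HOS cells and transformed with an activated RAS gene. There were 4 groups of 3 libraries: NC, which the sample titles equate with the control; BSG; M-BSG, equated with 5-MNP-BSG; and M-BSG-Hot, equated with 5-MNP-BSG (+). According to its title the study concerns osteosarcoma, moderate magnetic heating and a bioactive glass of the borosilicate kind, and the labels do not spell out the group names. All libraries carry the genotype WT, the same growth medium (DMEM with serum and antibiotics) and one common treatment text, which describes 5-MNP-BSG in an alternating magnetic field even for the NC libraries. The material, field, dose and time of each single group are therefore not stated. Nothing in the labels ties the 3 libraries of a group to separate cultures, so every p-value below measures the spread between these libraries, which may be technical.

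Cells detect a broken chromosome with the MRN complex (MRE11, RAD50 and NBN), which recruits the kinase ATM, while single-stranded DNA at stalled forks activates the kinase ATR. These kinases act through CHEK1, CHEK2, MDC1 and TP53BP1 to halt the cycle and to set the choice between end joining, in which the Ku proteins and DNA-dependent protein kinase rejoin ends, and homologous recombination, in which the BRCA proteins and their partners copy a sister chromatid. Fanconi anaemia proteins unhook interstrand crosslinks, mismatch repair corrects replication errors, and excision repair removes damaged bases and bulky adducts. Many of these enzymes act on proteins already present, so transcript levels do not measure repair activity.

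Library totals ran from 34434993 to 38163152 counts, and the lowest count of any member in any library was 147 (XPA in an M-BSG-Hot library). BSG replicate 1, M-BSG replicate 1 and M-BSG-Hot replicate 3 differed most from the remaining libraries. Ribosomal protein genes took 11.3%, 9.95% and 9.86% of their counts, against 7.55% to 9.18% in the other 9 libraries. Member calls that change without these 3 libraries are given both ways below. The 3 were picked from these same data by how far they deviated, and without them each treated group holds fewer libraries than NC. Leaving out deviating libraries narrows the spread between those kept, and calls over all genes rose as well. Calls gained in this way show how the results depend on these libraries and are not added support. Of the 7 mesenchymal and osteoblast markers measured, 4 were above 100 CPM in every library, with VIM between 3482 and 4639 counts per 1000000 counts of the library (CPM), CD44 between 682 and 756 CPM, SPARC between 321 and 391 CPM and FN1 between 102 and 208 CPM. The other 3 were low: RUNX2 (10.2 to 16.9 CPM), COL1A1 (5.23 to 8.91 CPM) and ALPL (1.81 to 3.56 CPM). Of markers of other cell types, the lysosomal protein gene CD68 (120 to 165 CPM) and the epithelial gene EPCAM (13.7 to 21.8 CPM) were present in every library. The epithelial genes CDH1 and KRT5 and the immune gene LYZ stayed at or below 0.191 CPM, and the endothelial genes PECAM1, VWF, CDH5 and KDR at or below 2.09 CPM. CD14, a monocyte marker, was low (0.368 to 1.91 CPM) but called higher in BSG (log2 1.74, edgeR adjusted p = 0.00124) and in M-BSG (log2 1.07, adjusted p = 0.0420), and its part in the results below was not tested.

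In levels per gene length (FPKM, averaged over all 12 libraries), the members spanned a wide range. The Ku subunits XRCC6 and XRCC5, which bind free DNA ends, stood highest at 243.5 and 182 FPKM. The nick sensor PARP1 followed at 75.9 FPKM, then the mismatch recognition protein MSH6 at 42.2 FPKM and PRKDC, the catalytic subunit of DNA-dependent protein kinase, at 39.2 FPKM. The highest of each remaining class were FANCI (26.4 FPKM), XRCC3 (20.9 FPKM), XPC (20.2 FPKM), MDC1 (13.01 FPKM) and NBN (8.92 FPKM). At the low end stood RAD51D at 1.30, FANCC at 1.65, RAD51B at 1.74 and XPA at 1.75 FPKM. The same unit was used only for this order, and all comparisons between groups below use CPM scaled by trimmed mean of M-values (TMM) factors.

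Across the groups, the transcript that stood apart was XRCC2, with log2 fold changes between -1.15 and -0.81 in the 3 treated groups against NC. All other called members differed by 0.50 or less. In bulk RNA a changed mix of cells and a changed amount of a transcript per cell cannot be told apart. A member is called here when its adjusted p in edgeR's quasi-likelihood test (Benjamini-Hochberg over all tested genes) was under 0.05. By that rule 9 members were called in at least 1 of 5 comparisons and 28 in none. Every comparison against NC used the same 3 NC libraries, so these comparisons are not independent of each other.

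BSG against NC had 5 members lower (XRCC2, FANCD2, RAD54L, ERCC2 and FANCA) and 0 higher, which is 13.5% of the members. Of all tested genes 11.7% were called, 6.22% lower and 5.5% higher. DESeq2 called 6 lower and 3 higher (CHEK1, XRCC6 and XRCC4), 24.3% of the members beside 18.2% of all tested genes. In edgeR 19 members (51.4%) had an unadjusted p under 0.05, beside 30.5% of all tested genes. The log2 fold change was negative for 26 of the 37 members, with a median of -0.17 beside -0.02 over all tested genes. In 18 members all BSG libraries lay below all NC libraries and in 7 above, while 38.7% of tested genes did not overlap, 20.6% lower and 18.1% higher. The count of lower members was 3 without NC 1, BSG 1, BSG 3 or M-BSG 3, and 2 without NC 2 or NC 3. It was 4 without M-BSG-Hot 2, 6 without BSG 2 and 7 without M-BSG 1. The count of higher members was 2 without BSG 2, 4 without M-BSG 1 and 1 without M-BSG-Hot 3. With the 3 libraries that stood apart left out, there were 10 lower and 2 higher members (32.4%) beside 16.3% of all tested genes.

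For M-BSG against NC, 5 members were lower (XRCC2, RAD54L, FANCA, XRCC3 and RAD52) and 1, MSH6, was higher. These are 16.2% of the members, beside 6.35% of all tested genes (3.13% lower and 3.22% higher). DESeq2 called 6 lower and 1 higher, 18.9% of the members beside 9.19% of all tested genes. In edgeR 11 members (29.7%) had an unadjusted p under 0.05, beside 18.3% of all tested genes. The median log2 fold change of the members was -0.10, beside -0.01 over all tested genes, and 26 members were negative. The M-BSG libraries did not overlap the NC libraries for 14 members on the lower side and 6 on the higher side, beside 27.5% of tested genes (15.1% lower and 12.4% higher). The lower count was 2 without NC 1, NC 2, NC 3 or M-BSG 1, 3 without BSG 3 or M-BSG-Hot 2, and 1 without M-BSG 3. It was 4 without BSG 2, M-BSG 2 or M-BSG-Hot 3, and 6 without BSG 1. MSH6 lost its call without 7 of the libraries, named in its paragraph. Leaving out the 3 libraries that stood apart gave 8 lower and 1 higher members (24.3%) beside 12.6% of all tested genes.

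M-BSG-Hot against NC had 2 members lower, XRCC2 and MRE11, and 0 higher, which is 5.41% of the members beside 4.91% of all tested genes (3.51% lower and 1.4% higher). With DESeq2 the counts were 3 lower and 0 higher, 8.11% of the members beside 7.54% of all tested genes. In edgeR 9 members (24.3%) had an unadjusted p under 0.05, beside 16.8% of all tested genes. The median of the members was -0.10, beside 0.00 over all tested genes, with 27 members negative. For 14 members all M-BSG-Hot libraries lay below all NC libraries and for 4 above, beside 28% of tested genes (14.5% lower and 13.5% higher). The lower count was 1 without NC 2, NC 3, M-BSG-Hot 1 or M-BSG-Hot 3, and 4 without BSG 1. It was 8 (21.6%, beside 8.42% of all tested genes) without the 3 libraries that stood apart.

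Between the materials, M-BSG against BSG had 0 members called by edgeR, beside 0.13% of all tested genes, and 0 by DESeq2, beside 0.325%. It also had 0 members with an unadjusted p under 0.05 in edgeR, beside 6.76% of all tested genes. Its libraries did not overlap for 1 member on the higher side (MSH6) and 0 on the lower side, beside 8.89% of tested genes (4.08% higher and 4.82% lower). The step from M-BSG to M-BSG-Hot likewise had 0 called by edgeR, beside 0.694% of all tested genes (0.0974% higher and 0.597% lower). This step also had 0 called by DESeq2, beside 1.79% of all tested genes. Its libraries did not overlap for 7 members on the higher side and 2 on the lower, beside 13.8% of tested genes (6.28% higher and 7.5% lower). It had 6 members (16.2%, beside 8.84% of all tested genes) with an unadjusted p under 0.05: RAD52, MSH6, XRCC1, RAD54L, MRE11 and XRCC2. Without the 3 libraries that stood apart, 1 member, ATM, was called lower in M-BSG-Hot than in M-BSG (log2 -0.40, edgeR adjusted p = 0.0305). A missing call does not show that the groups act alike: for XRCC2 the 95% interval of the log2 difference between M-BSG-Hot and M-BSG ran from -0.67 to -0.00 (adjusted p = 0.558 in edgeR).

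**Figure D1:**
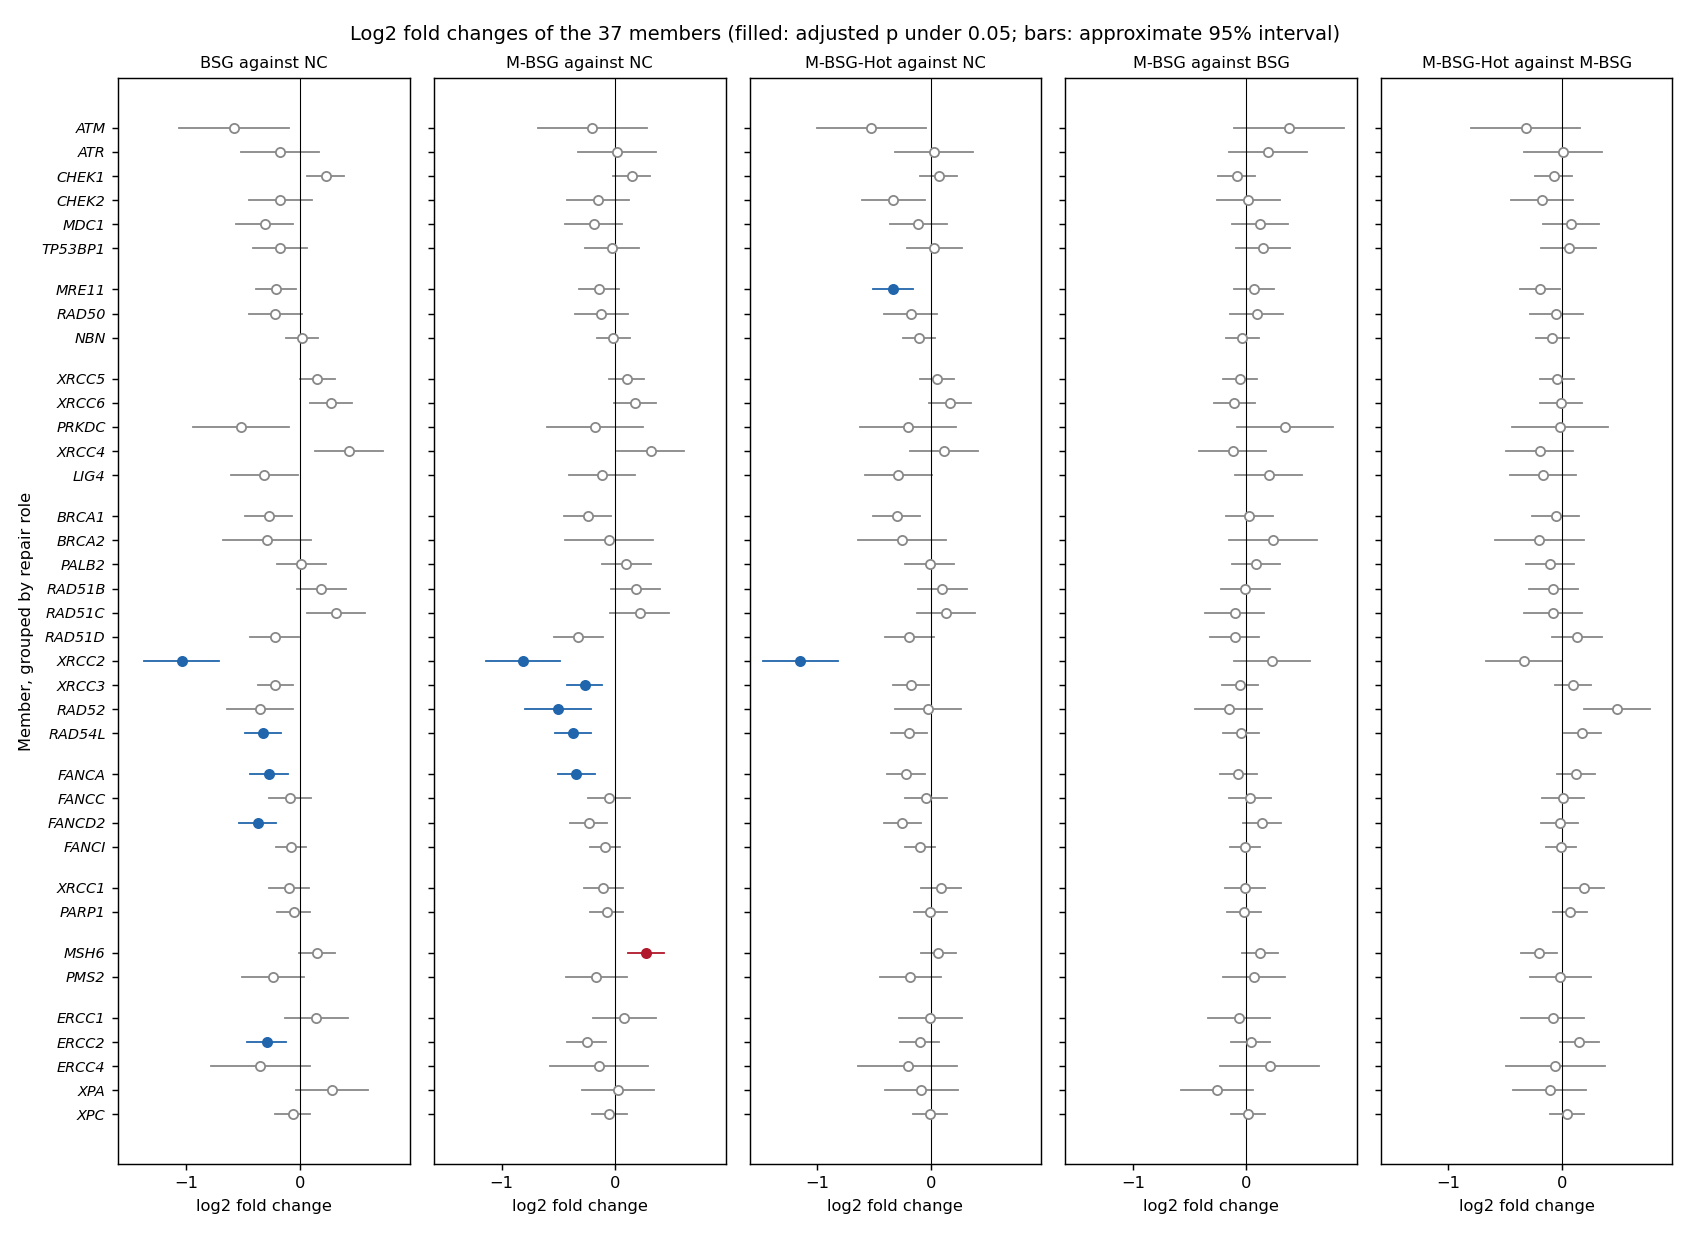
Log2 fold change of each of the 37 members (rows, grouped by repair role) in the 5 comparisons (panels). Points are edgeR estimates, bars approximate 95% intervals, and filled points have an adjusted p under 0.05. XRCC2 lies between -1.15 and -0.81 in the 3 panels against NC, and the last 2 panels, between treated groups, hold no filled point.

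The promoters of 4 of the called members are shown to let a reader see the sequence upstream of the gene with the largest difference (XRCC2), of the pair called lower in both BSG and M-BSG (RAD54L and FANCA) and of the member called higher (MSH6). Each run is the 250 bases before an annotated transcription start, 5′ to 3′ on the strand of the gene, from RefSeq on GRCh38.p14. The XRCC2 run is chr7:152676142-152676391 on the minus strand, RAD54L is chr1:46247438-46247687 on the plus strand (the first of 2 annotated starts), FANCA is chr16:89816648-89816897 on the minus strand, and MSH6 is chr2:47782895-47783144 on the plus strand (the first of 4). Capitals mark TGACGTCA, the cyclic AMP response element, in XRCC2, and CCAAT or its reverse complement ATTGG in the other 3.
XRCC2: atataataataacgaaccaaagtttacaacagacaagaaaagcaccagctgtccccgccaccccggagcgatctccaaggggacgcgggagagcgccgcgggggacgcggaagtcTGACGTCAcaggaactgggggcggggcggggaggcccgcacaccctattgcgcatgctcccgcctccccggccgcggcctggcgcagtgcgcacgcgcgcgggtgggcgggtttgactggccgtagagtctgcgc
RAD54L: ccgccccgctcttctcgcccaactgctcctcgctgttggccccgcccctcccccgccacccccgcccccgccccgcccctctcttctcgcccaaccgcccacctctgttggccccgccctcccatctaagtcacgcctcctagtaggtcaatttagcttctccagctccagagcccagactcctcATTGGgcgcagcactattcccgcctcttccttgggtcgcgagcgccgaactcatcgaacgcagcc
FANCA: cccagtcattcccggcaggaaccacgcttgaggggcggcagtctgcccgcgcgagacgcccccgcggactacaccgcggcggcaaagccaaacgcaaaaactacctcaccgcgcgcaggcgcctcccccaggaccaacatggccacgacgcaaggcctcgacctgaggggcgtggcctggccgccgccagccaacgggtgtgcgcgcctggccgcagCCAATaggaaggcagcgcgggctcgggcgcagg
MSH6: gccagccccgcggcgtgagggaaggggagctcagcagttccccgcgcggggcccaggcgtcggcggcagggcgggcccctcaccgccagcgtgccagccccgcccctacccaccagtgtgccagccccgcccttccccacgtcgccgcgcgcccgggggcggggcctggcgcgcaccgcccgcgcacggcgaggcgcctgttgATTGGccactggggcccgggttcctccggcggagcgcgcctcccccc

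Of the 37 members, 33 had a promoter window in that table, and NBN, XRCC5, PRKDC and FANCI had none. Windows ran from 250 bases before to 50 after the start and were searched on both strands. A member was counted if any of its windows held the letters, while the share over all genes counts single windows. Members with several windows therefore had more chances, and the shares below are not like for like. TGACGTCA lay in 4 of the 33 members (12.1%) and in 1.85% of 35116 windows of all genes. CCAAT lay in 19 (57.6%) against 34.6% of all windows, and 6 of the 9 called members held it: RAD54L, FANCA, MSH6, ERCC2, MRE11 and XRCC3. The E2F letters TTTCCCGC or TTTGGCGC were found in 6 members (18.2%) against 2.27%, among them XRCC2, FANCD2 and MSH6. The cell cycle element TTTGAA was at 15.2% in both, and the AP-1 letters TGANTCA were in 0 of the 33 members and 7.71% of all windows. These matches describe letters and are not evidence of binding. The called members that share CCAAT did not share a direction: MSH6 was higher and the other 5 were lower.

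The damage signalling kinases and mediators had 0 of 6 members called in any comparison in the reported edgeR fit, while DESeq2 called CHEK1 higher in BSG than in NC. Without the count filter, edgeR called ATM lower in BSG. With only the 2 groups compared in the fit, ATM was called lower in M-BSG-Hot. ATM, the kinase that signals double-strand breaks, was at 57.3, 70.4 and 68.7 CPM in NC and at 28.9, 50.9 and 51.8 CPM in BSG. Its M-BSG libraries read 39.2, 70.4 and 60.8 CPM, and its M-BSG-Hot libraries 49.9, 49.7 and 37.0 CPM. In each treated group the lowest ATM value belonged to the library that stood apart, and the BSG and M-BSG-Hot libraries lay below all NC libraries. ATM had -0.58 on the log2 scale in BSG (SE 0.224, adjusted p = 0.104 in edgeR), and M-BSG-Hot had -0.52 (adjusted p = 0.245). Without the 3 libraries that stood apart ATM was called lower in BSG (log2 -0.36, adjusted p = 0.0063) and in M-BSG-Hot (log2 -0.40, adjusted p = 0.00468).

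CHEK1, the kinase that acts below ATR, leaned the other way, with a log2 fold change of 0.23 in BSG (adjusted p = 0.0651 in edgeR), and all BSG libraries (48.8 to 50.8 CPM) lay above all NC libraries (39.8 to 45.3 CPM). CHEK2, the kinase that acts below ATM, had -0.33 in M-BSG-Hot (adjusted p = 0.195). The mediator MDC1, which binds phosphorylated histone H2AX, had -0.31 in BSG (adjusted p = 0.0964). ATR and TP53BP1 stayed between -0.17 and 0.03 in the 3 comparisons against NC. Without the 3 libraries that stood apart, CHEK2 was called lower in M-BSG-Hot (log2 -0.37, edgeR adjusted p = 0.0471) and MDC1 lower in BSG (log2 -0.19, adjusted p = 0.0469).

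Of the MRN complex, MRE11, the nuclease subunit, was called lower in M-BSG-Hot. It read 65.4, 71.5 and 72.5 CPM in NC, 58.2, 58.2 and 64.6 CPM in BSG, 66.2, 64.8 and 58.8 CPM in M-BSG, and 52.2, 59.1 and 54.9 CPM in M-BSG-Hot. All M-BSG-Hot libraries lay below all NC libraries, and 1 of 3 M-BSG libraries overlapped NC. The log2 fold change in M-BSG-Hot was -0.33 (SE 0.0816, adjusted p = 0.0302 in edgeR). The call was lost without NC 2, NC 3, M-BSG-Hot 1 or M-BSG-Hot 3 (adjusted p from 0.107 to 0.149) and when the trend of counts with gene length was removed (log2 -0.27, adjusted p = 0.0838). RAD50, the structural ATPase of the complex, had -0.21, -0.12 and -0.18 in BSG, M-BSG and M-BSG-Hot, and NBN had 0.02, -0.02 and -0.10, none of them called.

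The end joining members did not lean in 1 direction in BSG. The Ku subunit XRCC6 had 0.28 on the log2 scale (SE 0.0856, adjusted p = 0.0507 in edgeR) and the ligase scaffold XRCC4 had 0.43 (SE 0.138, adjusted p = 0.0561), both just outside the threshold. XRCC5 had 0.16 (adjusted p = 0.154). On the other side, PRKDC had -0.52 (adjusted p = 0.0984) and the DNA ligase LIG4, which XRCC4 holds, had -0.31 (adjusted p = 0.140). All 5 had an unadjusted p under 0.05 (30.5% of all tested genes) and libraries that did not overlap NC (38.7% of all tested genes), 3 above and 2 below. PRKDC read 539, 646 and 642 CPM in NC, and 297, 480 and 498 CPM in BSG, where the low value again belonged to BSG 1. XRCC6 read 488, 478 and 470 CPM in NC and 642, 537 and 562 CPM in BSG, with the highest value in BSG 1. DESeq2 called XRCC6 and XRCC4 higher in BSG. Without the 3 libraries that stood apart XRCC6 was called higher in BSG (log2 0.19, edgeR adjusted p = 0.0234), and PRKDC (log2 -0.33, adjusted p = 0.0166) and LIG4 (log2 -0.32, adjusted p = 0.0314) lower. For the other treated groups edgeR called 0 of the 5, and DESeq2 also 0, with 1 (XRCC4 in M-BSG) and 0 at an unadjusted p under 0.05.

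Homologous recombination held the largest called difference, XRCC2. Lower were 4 of 10 members in M-BSG, 2 in BSG and 1 in M-BSG-Hot, beside 3.13%, 6.22% and 3.51% of all tested genes. Of 28 further homologous recombination genes outside the list, 0 were lower in M-BSG, 1 in BSG (with 1 higher) and 0 in M-BSG-Hot. XRCC2, which forms a complex with RAD51B, RAD51C and RAD51D that helps load the recombinase onto single-stranded DNA, was at 28.8, 33.8 and 31.5 CPM in NC. It was at 12.4, 17.98 and 15.5 CPM in BSG, 16.1, 18.7 and 18.8 CPM in M-BSG, and 14.9, 16.6 and 11.0 CPM in M-BSG-Hot. No treated library reached the lowest NC library. The means were 31.4 ± 2.53 CPM in NC, 15.3 ± 2.81 in BSG, 17.9 ± 1.52 in M-BSG and 14.2 ± 2.90 in M-BSG-Hot (SD, n = 3). The level was 2.05-fold lower in BSG (log2 -1.04, SE 0.154, edgeR adjusted p = 0.000625), 1.76-fold lower in M-BSG (log2 -0.81, SE 0.152, adjusted p = 0.00495) and 2.22-fold lower in M-BSG-Hot (log2 -1.15, SE 0.154, adjusted p = 0.000476). XRCC2 was called in all 3 comparisons under each of 22 alternatives, among them leaving out each library in turn, and its log2 fold changes then ranged from -1.27 to -0.73.

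The partners of XRCC2 in that complex were not called in any comparison in the reported edgeR fit. Among the alternatives, RAD51D was called lower in M-BSG by DESeq2 and by edgeR without BSG 1. RAD51B was called higher in BSG with the gene length trend removed, and RAD51C higher in BSG without M-BSG 1. RAD51B had log2 fold changes of 0.19, 0.18 and 0.10 in BSG, M-BSG and M-BSG-Hot, and RAD51C had 0.32, 0.21 and 0.13. RAD51D had -0.22, -0.32 and -0.19 (smallest adjusted p = 0.0815 in edgeR, in M-BSG). The 4 subunit transcripts therefore did not share a direction, with XRCC2 and RAD51D negative and RAD51B and RAD51C positive in all comparisons against NC. Whether XRCC2 differed from its partners in its response was not tested. XRCC2 shares no exon bases with another gene in the GENCODE v29 annotation.

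RAD54L, a motor protein that aids strand exchange, read 39.1, 40.1 and 40.8 CPM in NC. Its values were 31.3, 32.6 and 32.1 CPM in BSG, 32.5, 31.8 and 28.4 CPM in M-BSG and 36.0, 33.3 and 35.7 CPM in M-BSG-Hot. All treated libraries lay below all NC libraries, and M-BSG-Hot lay between NC and the other treated groups. RAD54L was called in BSG (log2 -0.32, SE 0.0748, edgeR adjusted p = 0.0136) and in M-BSG (log2 -0.37, SE 0.0749, adjusted p = 0.00768). M-BSG-Hot had -0.19 (adjusted p = 0.188). The BSG call was lost without NC 2 or NC 3 (adjusted p from 0.0555 to 0.0645) and the M-BSG call without M-BSG 3 (adjusted p = 0.0551). RAD54L shares 25.1% of its exon bases with LRRC41 on the opposite strand. Whether the counting used strand is not given in the sources used here, so the origin of reads from the shared bases is uncertain. LRRC41 itself had -0.10 in BSG (edgeR adjusted p = 0.340) and -0.07 in M-BSG (adjusted p = 0.694).

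RAD52, an annealing protein, was called lower in M-BSG, and its M-BSG-Hot libraries overlapped the NC libraries. It read 24.0, 20.9 and 22.4 CPM in NC, 15.8, 18.1 and 19.0 CPM in BSG, 12.9, 18.5 and 15.95 CPM in M-BSG, and 25.9, 20.0 and 20.4 CPM in M-BSG-Hot. The BSG and M-BSG libraries lay below all NC libraries, and all M-BSG-Hot libraries lay above all M-BSG libraries. The log2 fold change in M-BSG was -0.50 (SE 0.136, edgeR adjusted p = 0.0420), and in BSG -0.35 (adjusted p = 0.104). M-BSG-Hot against M-BSG gave 0.48, with a 95% interval from 0.19 to 0.78 (unadjusted p = 0.00338, edgeR adjusted p = 0.187), so this difference did not pass. The M-BSG call was lost without NC 1, NC 2, NC 3, BSG 2, BSG 3, M-BSG 1, M-BSG 3, M-BSG-Hot 2 or M-BSG-Hot 3 (adjusted p from 0.0522 to 0.157). RAD52 shares 5.56% of its exon bases with an antisense-class gene annotated on the same strand.

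XRCC3, which pairs with RAD51C in a second paralog complex, read 66.3, 62.4 and 63.1 CPM in NC and 57.5, 53.2 and 54.8 CPM in BSG. M-BSG read 51.3, 53.1 and 54.6 CPM, and M-BSG-Hot 54.3, 54.9 and 60.7 CPM. All treated libraries lay below all NC libraries, and the treated groups overlapped each other. Over all 12 libraries edgeR called the M-BSG difference, at -0.27 on the log2 scale (SE 0.0721, edgeR adjusted p = 0.0391), while BSG had -0.21 (adjusted p = 0.0684) and M-BSG-Hot -0.18 (adjusted p = 0.224). Without the 3 libraries that stood apart XRCC3 was called lower in BSG (log2 -0.25, edgeR adjusted p = 0.00951) and in M-BSG-Hot (log2 -0.23, adjusted p = 0.0270) too, and DESeq2, library size scaling and removal of the length trend each called it lower in BSG. The M-BSG call was lost without NC 1, NC 2, NC 3, BSG 3, M-BSG 1, M-BSG 2, M-BSG 3 or M-BSG-Hot 2 (adjusted p from 0.0570 to 0.161). In GENCODE v29, KLC1 on the opposite strand covers 76.7% of the 7507 exon bases of XRCC3, while the length behind the XRCC3 FPKM is 2739 bases. The share over the counted exons is therefore not known, and the identity of the XRCC3 reads is uncertain. KLC1 itself had 0.05 in M-BSG (edgeR adjusted p = 0.724).

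The tumour suppressor BRCA1 had log2 fold changes of -0.27, -0.24 and -0.30 in BSG, M-BSG and M-BSG-Hot, with edgeR adjusted p of 0.0797, 0.177 and 0.102. BRCA2, which carries the recombinase to the break, had -0.29, -0.06 and -0.26, and PALB2, which links both BRCA proteins, had 0.01, 0.10 and -0.01. None of the BRCA1, BRCA2 and PALB2 differences was called in the reported edgeR fit over all libraries. With the gene length trend removed, edgeR called BRCA1 lower in M-BSG and in M-BSG-Hot. It was also called lower in M-BSG-Hot with only the 2 groups compared in the fit. BRCA1 was called lower in M-BSG (log2 -0.21, edgeR adjusted p = 0.0323) and in M-BSG-Hot (log2 -0.25, adjusted p = 0.0185) without the 3 libraries that stood apart.

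**Figure D2:**
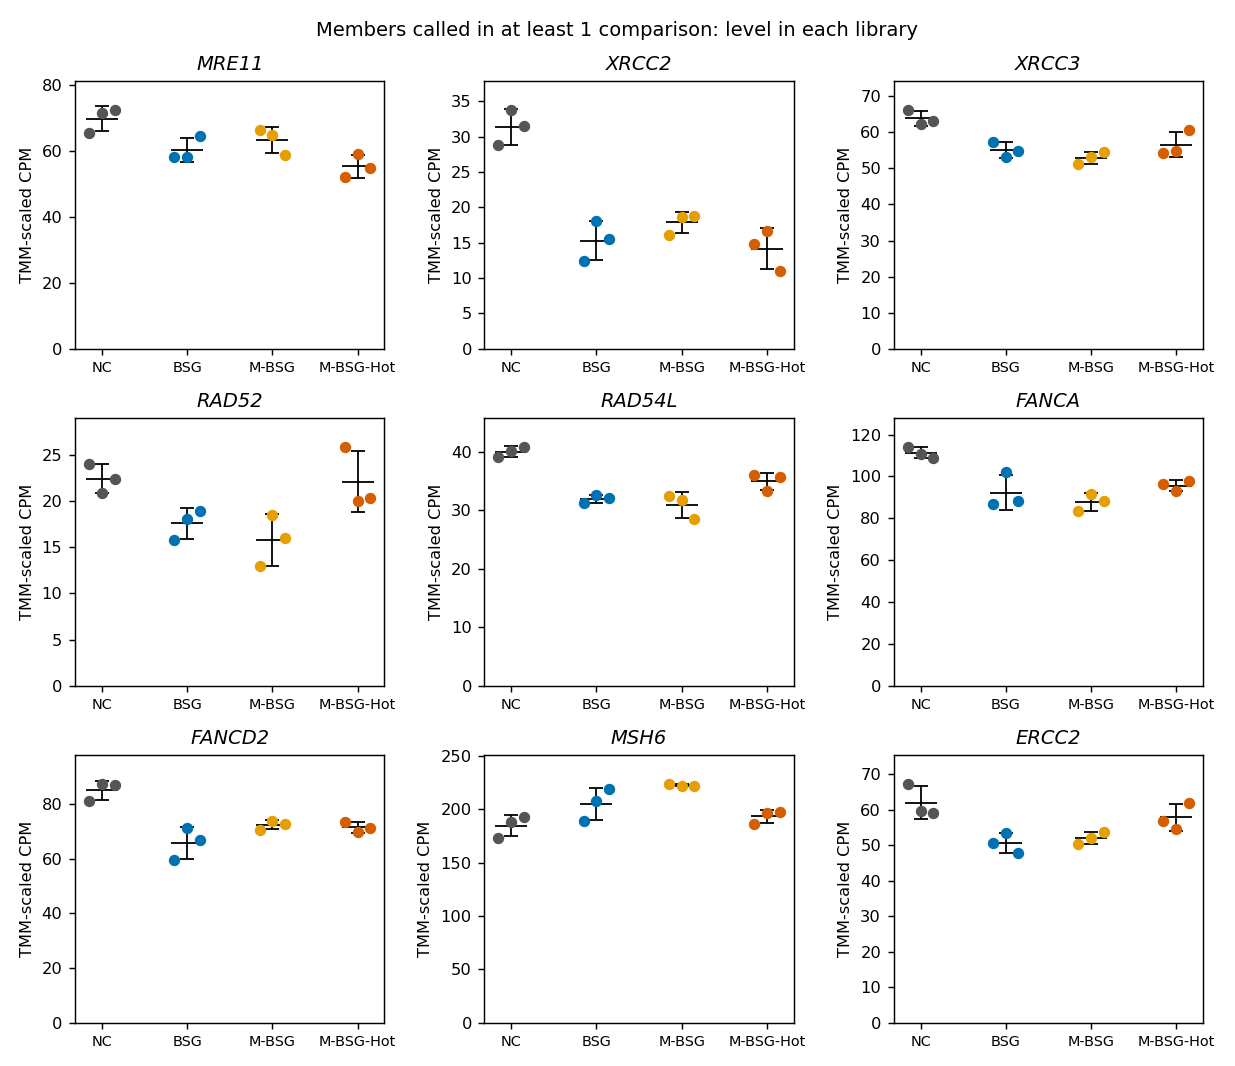
TMM-scaled CPM (vertical axes, from 0) of the 9 called members in each library of the 4 groups; points are libraries, lines the mean and bars 1 SD (n = 3). The NC libraries of XRCC2 lie between 28.8 and 33.8 CPM and all treated libraries between 11.0 and 18.8 CPM, while the other members differ less.

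In the Fanconi anaemia class all 4 members had negative log2 fold changes in every comparison against NC, and FANCD2 and FANCA were called. FANCD2, which is ubiquitinated with FANCI to start crosslink repair, read 81.0, 87.2 and 86.8 CPM in NC and 59.5, 71.0 and 66.9 CPM in BSG. Its M-BSG libraries read 70.6, 73.8 and 72.6 CPM, and its M-BSG-Hot libraries 73.5, 69.5 and 71.0 CPM. Every treated library lay below every NC library. The BSG difference was -0.37 (SE 0.0763, edgeR adjusted p = 0.00647) and was called under each of the 22 alternatives. M-BSG had -0.23 (adjusted p = 0.0974) and M-BSG-Hot -0.25 (adjusted p = 0.0820). FANCD2, without the 3 libraries that stood apart, was called lower in M-BSG (log2 -0.22, edgeR adjusted p = 0.0296) and in M-BSG-Hot (log2 -0.25, adjusted p = 0.0170), and over all libraries DESeq2 called it in M-BSG-Hot and removal of the length trend in both. FANCD2 has pseudogene copies in the human genome, so some of its reads may be split between copies.

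FANCA, a core complex subunit, read 114, 111 and 109 CPM in NC and 86.8, 102 and 88.1 CPM in BSG. M-BSG read 83.5, 91.8 and 88.3 CPM, and M-BSG-Hot 96.2, 92.9 and 98.0 CPM. All treated libraries lay below all NC libraries. FANCA was called in BSG (log2 -0.27, SE 0.0763, edgeR adjusted p = 0.0363) and in M-BSG (log2 -0.34, SE 0.0764, adjusted p = 0.0150). M-BSG-Hot had -0.22 (adjusted p = 0.142), and -0.24 (adjusted p = 0.0318, called) without the 3 libraries that stood apart. The BSG call was lost without NC 1, NC 2, NC 3, BSG 1, BSG 3, M-BSG 3 or M-BSG-Hot 2 (adjusted p from 0.0542 to 0.127), and with the gene length trend removed the value was -0.17 (adjusted p = 0.0806). The M-BSG call was lost without NC 1, NC 2, NC 3, M-BSG 1 or M-BSG 3 (adjusted p from 0.0508 to 0.0742). FANCA shares 23.6% of its exon bases with ZNF276 on the opposite strand, so the origin of reads from the shared bases is uncertain. ZNF276 was itself called lower in BSG (log2 -0.29, edgeR adjusted p = 0.0419) but not in M-BSG (log2 -0.19, adjusted p = 0.2565). The part of the shared bases in the FANCA differences was not tested.

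FANCI had -0.08, -0.09 and -0.09 in BSG, M-BSG and M-BSG-Hot, and the core subunit FANCC had -0.08, -0.05 and -0.04. Neither was called. Among the single-strand break members, the scaffold XRCC1 had -0.09, -0.10 and 0.09 and PARP1 had -0.05, -0.08 and -0.01 in the same order. The 95% intervals of PARP1 stayed within -0.22 and 0.14 in these 3 comparisons.

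MSH6 was the 1 member called higher. It read 173, 188 and 193 CPM in NC and 188, 208 and 219 CPM in BSG. It read 224, 222 and 222 CPM in M-BSG and 186, 197 and 197 CPM in M-BSG-Hot. All M-BSG libraries lay above all libraries of the other 3 groups. The log2 fold change in M-BSG was 0.27 (SE 0.0728, edgeR adjusted p = 0.0422), in BSG 0.15 (adjusted p = 0.179; 0.20 and called, adjusted p = 0.0350, without the 3 libraries that stood apart) and in M-BSG-Hot 0.07 (adjusted p = 0.691). M-BSG-Hot against M-BSG gave -0.20 (adjusted p = 0.367). The M-BSG call was lost without NC 1, NC 2, NC 3, BSG 2, M-BSG 1, M-BSG 2 or M-BSG 3 (adjusted p from 0.0552 to 0.194), and with scaling by library size alone (log2 0.21, adjusted p = 0.147). MSH6 shares 16.2% of its exon bases with FBXO11 on the opposite strand, and FBXO11 itself had -0.00 in M-BSG (edgeR adjusted p = 0.991). PMS2, the other mismatch repair member, has many near-identical copies and had -0.23, -0.17 and -0.18 against NC with no call.

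In nucleotide excision repair, ERCC2, a helicase subunit of the transcription factor TFIIH, was called lower in BSG. It read 67.3, 59.6 and 59.1 CPM in NC and 50.6, 53.6 and 48.0 CPM in BSG. M-BSG read 50.4, 52.0 and 53.8 CPM and M-BSG-Hot 56.9, 54.7 and 62.0 CPM. BSG and M-BSG lay below all NC libraries, and M-BSG-Hot overlapped NC. The BSG difference was -0.29 (SE 0.0805, edgeR adjusted p = 0.0340), M-BSG had -0.25 (adjusted p = 0.0880) and M-BSG-Hot -0.10 (adjusted p = 0.568). ERCC2 was called lower in M-BSG too without the 3 libraries that stood apart (log2 -0.23, edgeR adjusted p = 0.0448). The BSG call was lost without NC 1, NC 2, NC 3, BSG 1, BSG 3 or M-BSG 3 (adjusted p from 0.0507 to 0.126). The incision partners ERCC1 and ERCC4 had 0.15 and -0.35 in BSG, and the damage recognition proteins XPA and XPC had 0.29 and -0.06, none of them called. KLC3 on the opposite strand covers 8.29% of the exon bases of ERCC2.

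**Figure D3:**
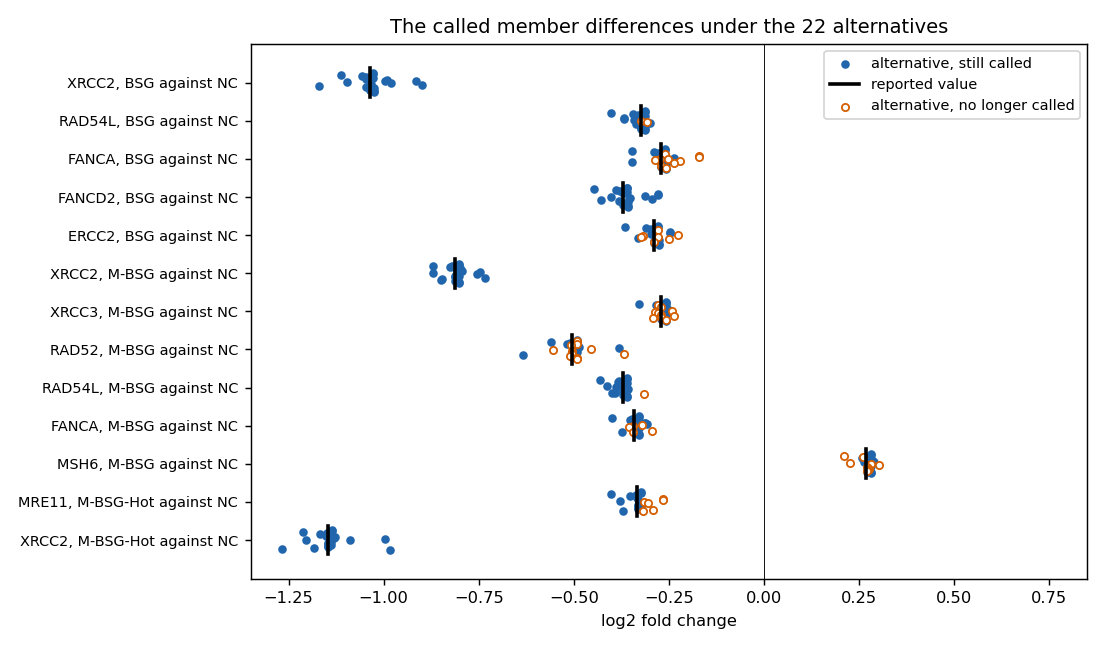
Log2 fold change (horizontal axis) of each of the 13 called member differences as reported (black line) and under 22 alternatives (points; filled where still called, open where no longer called). XRCC2 in the 3 comparisons against NC and FANCD2 in BSG against NC have filled points alone, and no point changes sign.

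Log2 fold changes in BSG against NC moved with gene length, over all genes and over the members. When the tested genes were split into 3 equal classes by length, the median log2 fold change in BSG was 0.15, -0.01 and -0.16 from the shortest to the longest class, the last starting at 5466 bases. The 4, 17 and 16 members in these classes had medians of 0.09, -0.05 and -0.25. ATM and PRKDC are the longest members at 15408 and 13459 bases, and XRCC2, at 4771 bases, lies in the middle class. For M-BSG the all-gene medians were 0.03, -0.01 and -0.04, and for M-BSG-Hot 0.07, 0.01 and -0.06. With the length trend of each library removed, BSG against NC had 6 members lower and 5 higher (CHEK1, XRCC6, XRCC4, RAD51B and MSH6), 29.7% of the members beside 15.4% of all tested genes, and the median of the members was -0.06. XRCC2, RAD54L, FANCD2 and ERCC2 were still called lower in BSG on that scale. XRCC3 and XRCC1 were called lower there too, and FANCA was not called. With the library numbers fitted as a block as well, ATM and PRKDC were also called lower in BSG. Removing the trend does not measure the part of gene length in any single difference, which was not tested.

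**Figure D4:**
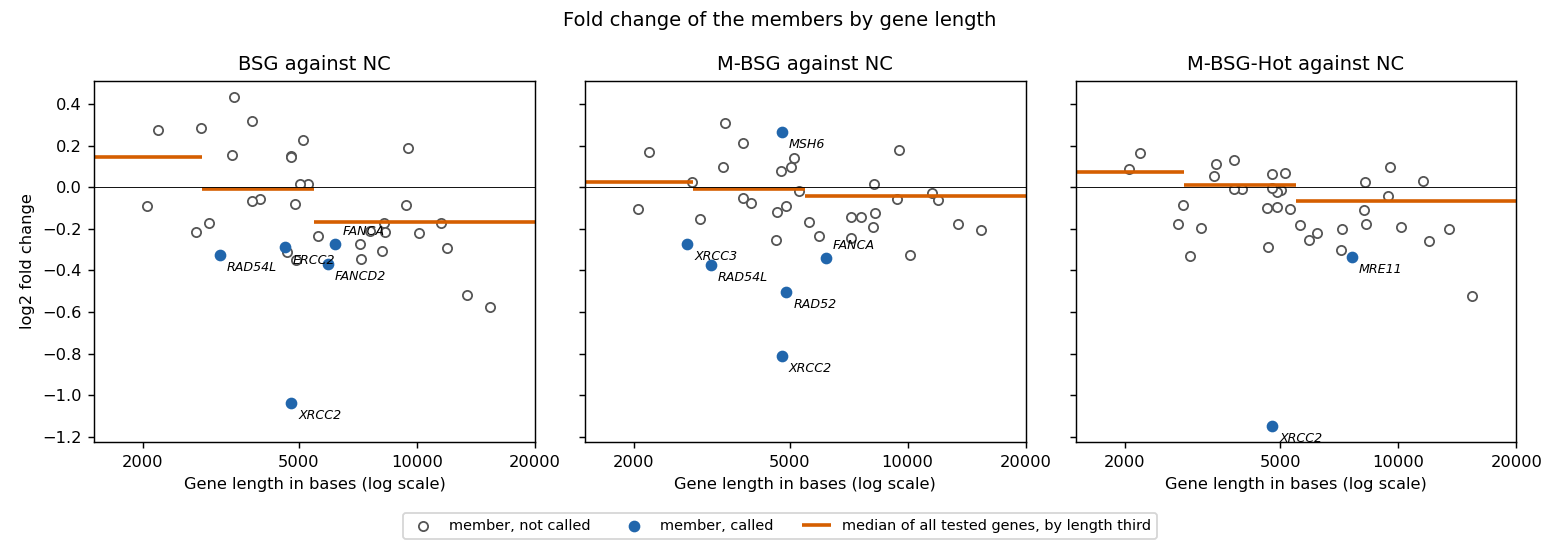
Log2 fold change (vertical axis) against gene length in bases (horizontal log axis) for the 37 members in the 3 comparisons with NC; filled points are called and bars show the median of all tested genes in each length class. In BSG against NC the class medians run from 0.15 to -0.16, and XRCC2 lies at -1.04 in the middle class.

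A further 132 genes of the same pathways, listed by role and not by their values, were counted beside the members. BSG against NC had 13 of them higher and 2 lower (11.4%, near the 11.7% of all tested genes), with a median of 0.02. Higher were 4 signalling genes, TIPIN (log2 0.41), which steadies replication forks, the histone H2AX (0.45), the ubiquitin ligase RNF8 (0.34) and UIMC1 (0.35), which bring BRCA1 to breaks. So were RPA2 (0.34), which coats single-stranded DNA, TDP2 (0.31), which frees trapped topoisomerase, and RAD18 (0.32) and UBE2A (0.31), which ubiquitinate the replication clamp. Of TFIIH and its kinase module, CDK7 (0.47), GTF2H5 (0.47), MNAT1 (0.44) and GTF2H1 (0.23) were higher while the TFIIH helicase ERCC2 was lower. The fifth of the excision repair genes called was CETN2 (0.41, edgeR adjusted p = 0.0486), named after its value was seen and not followed through the alternatives. Lower were the mismatch repair protein MLH3 (-0.63, adjusted p = 0.00102) and the Holliday junction nuclease GEN1 (-0.41, adjusted p = 0.0463).

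MLH3 was the pathway gene outside the list whose difference was called in all 3 comparisons against NC. It read 32.8, 31.2 and 32.3 CPM in NC, 19.3, 21.7 and 21.3 CPM in BSG, 18.3, 21.5 and 23.9 CPM in M-BSG, and 24.5, 22.7 and 21.6 CPM in M-BSG-Hot. All treated libraries lay below all NC libraries. MLH3 had -0.60 in M-BSG on the log2 scale (edgeR adjusted p = 0.00198), and M-BSG-Hot had -0.49 (adjusted p = 0.0101). M-BSG against NC had 4 of the 132 higher, TIPIN (0.29), UIMC1 (0.27), TDG (0.38), a glycosylase, and RAD18 (0.36), and besides MLH3 the Fanconi gene FANCF lower (-0.43), in all 4.55%, beside 6.35% of all tested genes. M-BSG-Hot against NC had 1 lower, MLH3 (0.758%, beside 4.91% of all tested genes). The comparisons between treated groups had 0 of the 132 called by edgeR and by DESeq2. At an unadjusted p under 0.05 in edgeR there were 11 of the 132 in M-BSG-Hot against M-BSG, beside 8.84% of all tested genes. In M-BSG against BSG there were 9 of the 132, beside 6.76% of all tested genes.

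Many of these calls were lost when 1 library was left out. MLH3 and TIPIN in BSG and MLH3 and RAD18 in M-BSG were called under each of the 22 alternatives, and MLH3 in M-BSG-Hot lost its call without M-BSG-Hot 3 (edgeR adjusted p = 0.0518). In BSG, UIMC1 was lost without NC 2 (0.0553), CDK7 without NC 3 (0.0510), RPA2 and RAD18 without NC 2 or NC 3 (to 0.0677 and 0.0618), and H2AX and GTF2H5 without NC 2, NC 3 or BSG 1 (to 0.103 and 0.0823). MNAT1 was lost without any 1 of the NC libraries or BSG 1 (to 0.0959), TDP2 also without BSG 3 (to 0.129), and GTF2H1 also without BSG 3 or M-BSG 3 (to 0.153). GEN1 and UBE2A were lost without any NC library, BSG 1, BSG 3, M-BSG 3, M-BSG-Hot 1 or M-BSG-Hot 2 (to 0.150 and 0.157), and RNF8 without any NC library, BSG 1, BSG 2, M-BSG 2, M-BSG 3, M-BSG-Hot 1 or M-BSG-Hot 2 (to 0.162). In M-BSG, TIPIN and UIMC1 were lost without any 1 library other than BSG 1 or M-BSG-Hot 3 (to 0.178 and 0.190), TDG without any NC library, BSG 2, BSG 3, M-BSG 2, M-BSG 3, M-BSG-Hot 1 or M-BSG-Hot 2 (to 0.184), and FANCF without any NC or M-BSG library or M-BSG-Hot 2 (to 0.151). The 13 higher genes in BSG became 7 without NC 1 or BSG 1 and 2 without NC 2 or NC 3. With the gene length trend removed, RPA2, TDP2, UBE2A and GEN1 lost their BSG calls, both with and without the block of library numbers. Their lengths are 1969, 1935, 1776 and 10156 bases. The other BSG calls followed through the alternatives were kept on that scale. Without the 3 libraries that stood apart, RNF8, TDP2 and UBE2A lost their BSG calls. The part of gene length in these calls was not tested.

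Proliferation genes were listed beside the members because many repair genes are transcribed with DNA replication. Of the 20 listed, 1 was called higher in BSG, the G1 cyclin CCNE1 (log2 0.53, edgeR adjusted p = 0.0025). The medians of the 20 against NC were 0.02, -0.04 and 0.01 in BSG, M-BSG and M-BSG-Hot, beside -0.17, -0.10 and -0.10 for the members. The part of proliferation in the differences of the members was not tested.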

How the data were processed

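RNA-seq libraries of 143B cells (4 groups of 3, grouped by the sample titles) were deposited as raw counts per gene and as FPKM values. The authors' deposited FPKM equal the deposited counts rescaled by library total and gene length in 100% of values (tolerance 1e-06). Libraries were made with a SMARTER mRNA-Seq kit from total RNA, per the labels' protocols. The submitters' processing notes list the mouse builds GRCm38 and mm10, while the symbols are human; the sources used here do not give the build actually used, the aligner, the counter or the strand setting. Counts were tested with edgeR 4.0.16 (quasi-likelihood, TMM, minimum count 10, all 12 libraries in 1 fit, Benjamini-Hochberg over 15407 genes); DESeq2 1.42.0 was an alternative. In data simulated for BSG against NC over 15199 genes, 38% of changes of log2 0.5 and 77% of log2 1 were recovered, with 5.74% false calls. The simulation changed 100 genes at each size and held no trend with gene length and no library that stood apart. Its rates may therefore not hold for the real comparison. Members called in any comparison are given for each library, other pathway genes up to 4 per class and comparison. The members and lists were chosen with earlier results of these data known. An exact permutation test of 3 against 3 cannot go below p = 0.1 and was not used. Sequences came from RefSeq and exon overlaps from GENCODE v29. The overlap shares are over all exon bases of a gene in GENCODE v29. Those bases can differ from the gene length behind the FPKM, so the shares need not hold for the counted exons.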

Additional observations from a re-analysis of the deposited data

How the results depend on the processing

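Over 22 alternatives, the 13 called member differences gave 286 values, of which 224 were still called, 62 were not and 0 changed sign. For the 21 called differences of other pathway genes, 335 of 462 were still called, 127 were not and 0 changed sign. The cause of each move below was not tested. Leaving out single libraries gave these ranges of members called: BSG against NC 0 to 4 higher and 2 to 7 lower, M-BSG against NC 0 to 1 and 1 to 6, M-BSG-Hot against NC 1 to 4 lower. For other pathway genes they were 2 to 19 higher and 1 to 3 lower in BSG, 1 to 6 and 1 to 2 in M-BSG, and 0 to 1 and 0 to 2 in M-BSG-Hot against NC. For all genes they were 424 to 1329 higher and 429 to 1227 lower in BSG, 295 to 635 and 248 to 575 in M-BSG, 103 to 304 and 285 to 654 in M-BSG-Hot against NC, 0 to 3 and 3 to 24 in M-BSG against BSG, and 3 to 20 and 22 to 123 in M-BSG-Hot against M-BSG.

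DESeq2 called 3 members higher in BSG, other pathway genes 20 higher in BSG, 7 higher in M-BSG, 2 higher and 2 lower in M-BSG-Hot, and for all genes 1469 higher in BSG, 397 higher in M-BSG-Hot, 13 higher and 37 lower in M-BSG against BSG, and 47 higher and 229 lower in M-BSG-Hot against M-BSG. RLE scaling gave 2 members higher and 1 other pathway gene lower in BSG. Library size scaling moved the all-gene median in BSG from -0.02 to -0.09 and gave 0 members higher in M-BSG, other pathway genes 7 higher and 5 lower in BSG, 1 higher and 5 lower in M-BSG and 3 lower in M-BSG-Hot, and 1 gene higher in M-BSG against BSG. No count filter gave 1 member higher in BSG and 0 in M-BSG, 1 other pathway gene higher in M-BSG, and 6 genes higher and 32 lower in M-BSG against BSG. The strict filter gave 1 other pathway gene higher in M-BSG, and 504, 318 and 118 genes higher in BSG, M-BSG and M-BSG-Hot, 320 lower in M-BSG-Hot, 9 lower in M-BSG against BSG and 7 higher in M-BSG-Hot against M-BSG. Only the 2 groups compared gave 3 members lower in BSG and 5 in M-BSG-Hot, other pathway genes 1 lower in BSG and 3 in M-BSG-Hot, and 3 genes higher and 7 lower in M-BSG-Hot against M-BSG.

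With the length trend removed there were 5 members higher in BSG, other pathway genes 10 higher and 4 lower in M-BSG and 3 higher and 3 lower in M-BSG-Hot, 1283, 787 and 386 genes higher against NC, 3 higher in M-BSG against BSG, and 35 higher and 178 lower in M-BSG-Hot against M-BSG. Without BSG 1, M-BSG 1 and M-BSG-Hot 3 there were 2 members higher and 10 lower in BSG, 8 lower in M-BSG, 8 lower in M-BSG-Hot and 1 lower in M-BSG-Hot against M-BSG; other pathway genes 10 higher and 10 lower in M-BSG and 5 higher and 7 lower in M-BSG-Hot; and 1047 genes higher and 925 lower in M-BSG, 451 and 862 in M-BSG-Hot, 73 and 38 in M-BSG against BSG, and 29 and 246 in M-BSG-Hot against M-BSG.

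The titles number the libraries, and these values do not settle whether the numbers pair them. Deviations of same-numbered libraries correlated from -0.287 to 0.408 and those of different numbers from -0.32 to 0.289. Of 12 libraries, 5 correlated best with their own number. Among NC, BSG and M-BSG, same-numbered libraries correlated from 0.036 to 0.408 and different numbers from -0.32 to 0.19. Same-numbered pairs with M-BSG-Hot ran from -0.287 to 0.033. The replicate block gave 1 member higher in BSG, 3 lower in M-BSG and 2 genes higher in M-BSG against BSG. The block with the length trend removed gave 5 members higher and 8 lower in BSG, other pathway genes 2 higher and 4 lower in M-BSG-Hot, 1347, 769 and 384 genes higher against NC, 5 higher in M-BSG against BSG, and 31 higher and 191 lower in M-BSG-Hot against M-BSG.

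With 3 libraries a group, a member that was not called can differ by up to its 95% interval. The lowest count of a member was 147, and whether depth limited the calls was not tested.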
